A study of Mus musculus with 8 samples.

Results

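The genes described are 10 fibroblast genes of the extracellular matrix and cell surface that do not encode collagens: Fn1, Sparc, Postn, Lum, Dcn, Lox, Pdgfra, Pdgfrb, Thy1 and Ly6a. They were listed by name as fibroblast genes, and are 10 of the 21853 protein-coding genes on chromosomes 1 to 19, X and Y in GENCODE release M21. Each was represented by the body of its longest protein-coding transcript on mm10. The data are ChIP–seq peak lists for H3K36me3 from MEFs, mouse embryonic fibroblasts taken at E13.5, of 1 embryo. All cells carried i4F, an inducible cassette encoding OCT4, SOX2, KLF4 and MYC (together OSKM) that doxycycline switches on, and all were kept for 72 h in iPSC medium. The 4 conditions were no doxycycline (MEF), no doxycycline with 2 µM vitamin B12 (MEF B12), doxycycline at 1 µg/ml according to the labels (OSKM), and both agents (OSKM B12).

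H3K36me3 is placed along gene bodies by SETD2, which travels with elongating RNA polymerase II, so it marks transcribed genes from some distance inside the start to beyond the end. Fibroblasts make and remodel connective tissue matrix. The loss of fibroblast gene activity is known as an early step when these cells are reprogrammed by OSKM, and vitamin B12 feeds the methionine cycle that supplies methyl groups to histone methyltransferases.

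There was 1 H3K36me3 library per condition, called against 1 input, so differences between conditions were not checked on replicates and are given without p-values. Intervals cover counting error only, and the variation between cultures and immunoprecipitations is not in them. The H3K36me3 libraries held 29046913 to 33399267 tags after duplicate removal, with 65473 to 69420 peaks each. OSKM peaks took up 92.8 Mb, while those of MEF took up 154 Mb and those of MEF B12 and OSKM B12 166 Mb each, so values over single genes are set beside those of all marked genes. A marked gene had at least 10% of its body in peaks in at least 1 library, and 9959 genes did, the 10 described here included. Ly6a reached that share only in MEF and OSKM B12. The values describe cell populations, in which fewer cells with the mark and less mark per cell cannot be told apart.

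The label of the cells was checked against markers. Among 7 fibroblast and mesenchyme genes, the bodies of Col1a1, Col1a2 and Vim were at least 72.9% covered in every library, while Twist1 had no peak in any and S100a4 had one only in MEF B12. Prrx1 was at least 20.4% covered and Fap 4.85% to 13.9%. The summed density of these 7 genes was 2.59 in MEF and 2.94 in MEF B12, against 1.59 in OSKM and 3.03 in OSKM B12. None of 8 epithelial genes, Cdh1 and Epcam among them, had a peak in any library, and of 7 pluripotency genes only Zfp42 had one, over 2.43% of its body in OSKM. Among 5 endothelial genes, Pecam1, Cdh5 and Emcn were at 0 in all libraries and Tek was 2.84% covered in MEF and 3.63% in MEF B12, against 7.86% in OSKM and 26.6% in OSKM B12. Kdr had a peak only in OSKM B12, over 0.903% of its body, and the summed endothelial density ranged from 0.00993 in MEF to 0.131 in OSKM B12. Among 5 leukocyte genes, Ptprc and Cd14 were at 0, but Cd68 was 76.0% to 100% covered and Csf1r 12.6% to 33.7%. Adgre1 reached 3.69% at most, and the summed leukocyte density was 0.935 in MEF and 1.16 in MEF B12, against 0.488 in OSKM and 1.13 in OSKM B12. Whether such other cells were present, and what part they had in the results, was not tested.

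The covered share is the percentage of gene-body bases inside peaks. The density is the sum of the scaled pileup (fragments over a base per 1000000 tags of the library) over the bases in peaks, divided by the length of the body, and it is the measure used to compare genes of different length. In MEF, all 10 genes had peaks, and their median density of 0.644 stood beside 0.273 for the marked genes. The median over the 10 genes was 0.691 in MEF B12, then 0.331 in OSKM, then 0.670 in OSKM B12, against 0.326, 0.133 and 0.343 for the marked genes. The order in MEF was Pdgfra, Sparc, Fn1, Postn, Pdgfrb, Lox, Dcn, Lum, Thy1 and Ly6a. This order was the same in MEF B12, and in the other libraries it differed only by exchanges between neighbours in the order. Whether neighbours differ beyond the spread between cultures cannot be told with 1 library each. OSKM held the lowest density of every one of the 10 genes.

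**Figure D1:**
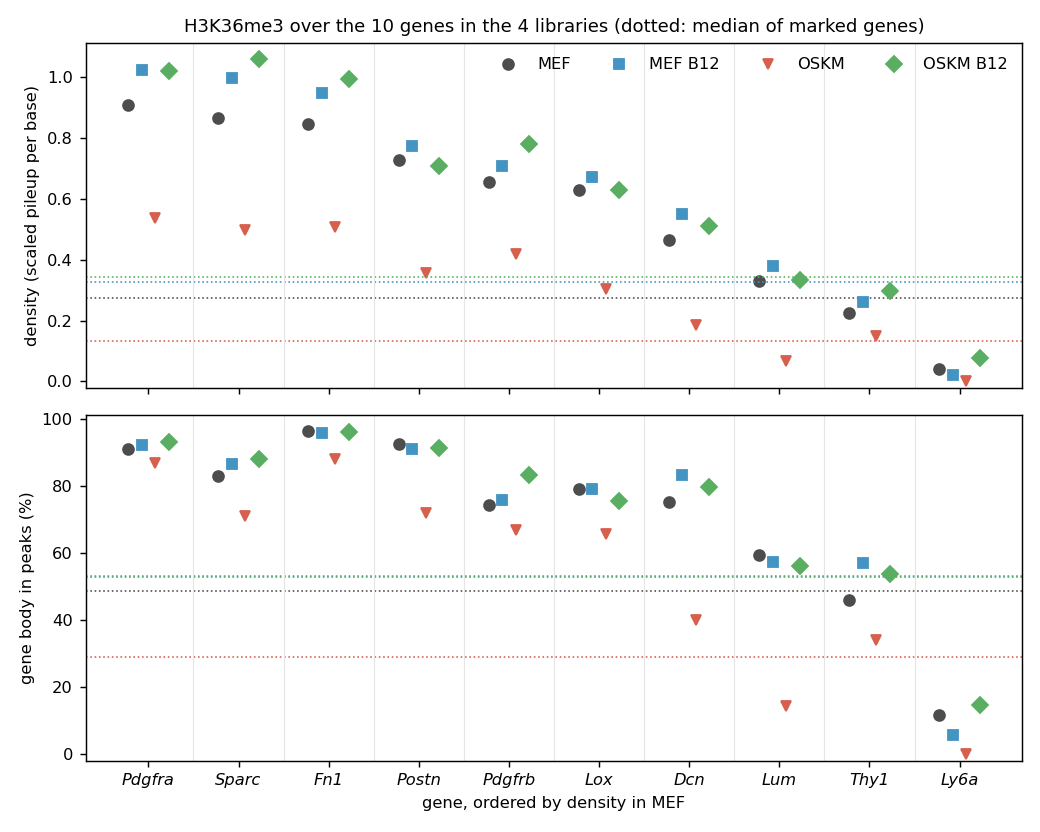
Density (top, scaled pileup per base) and covered share of the gene body (bottom, %) of the 10 genes, 1 point per library, with dotted lines at the median of the 9959 marked genes in that library. The OSKM point is the lowest of the 4 for every gene in both panels, and Pdgfra, Sparc and Fn1 lie far above the dotted lines in all libraries.

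Fibronectin, encoded by Fn1 (ENSMUSG00000026193, chr1:71585524-71653175, minus strand, 46 exons), is the glycoprotein that forms the first fibrils of new matrix and binds integrins. Its body was 96.3% covered in MEF and 95.8% in MEF B12, against 88.0% in OSKM and 96.2% in OSKM B12. The density was 0.845, 0.950, 0.508 and 0.996 in the same order, with OSKM well below the other libraries and OSKM B12 the highest. In MEF, Fn1 lay under a single peak of 67028 bp, which ran from intron 2 to 1849 bp past the gene end. That stretch was split into 12 peaks in OSKM, the longest of 13219 bp, and was again a single peak of 66682 bp in OSKM B12. Of the Fn1 bases called in MEF, 91.4% were still called in OSKM, and over bases common to the 4 peak lists it had a scaled pileup of 0.877 in MEF and 0.577 in OSKM. The lower density of Fn1 thus went with a lower pileup over nearly the same bases. An annotated antisense gene, Apol7d, overlaps the start of Fn1 by 339 bp, a stretch with no peak in any library.

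Sparc (ENSMUSG00000018593, chr11:55394500-55420080, minus strand, 10 exons) encodes osteonectin, a secreted glycoprotein that binds collagen and calcium. Its densities were 0.866 in MEF and 0.998 in MEF B12, against 0.497 in OSKM and 1.06 in OSKM B12. The most enriched peak of Sparc reached 6.63-fold over input in MEF and 6.62 in MEF B12, against 4.55 in OSKM and 7.42 in OSKM B12, and lay at percentile 99.8 or higher among all peaks of each library. The exons of Sparc were 87.3% covered in each of the 4 libraries, while its introns were 82.6% covered in MEF and 86.4% in MEF B12, against 69.6% in OSKM and 88.3% in OSKM B12. The called bases that OSKM lacked on balance were thus intronic, while the pileup over bases common to the 4 peak lists, exons included, was 0.628 of MEF. The first of 5 equal parts of the body, made up of exon 1 and part of the 9790 bp of intron 1, was 31.7% covered in MEF and 38.5% in MEF B12, against 0% in OSKM and 53.5% in OSKM B12. The most enriched peak of the 10 genes covers exon 8 in every library, and 300 bases around exon 8 are shown (chr11:55398473-55398772, minus strand, mm10), with the coding bases in capitals. The peak over these bases, which were called in all 4 libraries, had a scaled pileup of 1.14 in MEF and 1.16 in MEF B12, against 0.736 in OSKM and 1.37 in OSKM B12.
Sparc exon 8: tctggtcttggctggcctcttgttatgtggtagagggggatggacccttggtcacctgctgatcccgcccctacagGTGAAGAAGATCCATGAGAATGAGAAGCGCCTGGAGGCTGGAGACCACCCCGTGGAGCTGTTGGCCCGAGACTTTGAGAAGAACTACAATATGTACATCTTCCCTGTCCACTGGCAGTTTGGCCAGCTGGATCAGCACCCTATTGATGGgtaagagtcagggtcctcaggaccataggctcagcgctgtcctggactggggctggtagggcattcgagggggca

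Postn (ENSMUSG00000027750, chr3:54361109-54391037, plus strand, 22 exons) encodes periostin, a matricellular protein of collagen-rich tissue. Its densities were 0.728 in MEF and 0.774 in MEF B12, against 0.358 in OSKM and 0.710 in OSKM B12, and the last of these was slightly under MEF. A single MEF peak of 28652 bp stood against 8 peaks in OSKM and 2 in OSKM B12. Coverage of its exons was 92.0% in MEF and 88.9% in OSKM. Coverage of its introns was 92.6% in MEF and 69.9% in OSKM, so most of the lost bases were intronic here too. Over the bases called in all 4 libraries, OSKM had 0.635 of the MEF pileup.

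**Figure D2:**
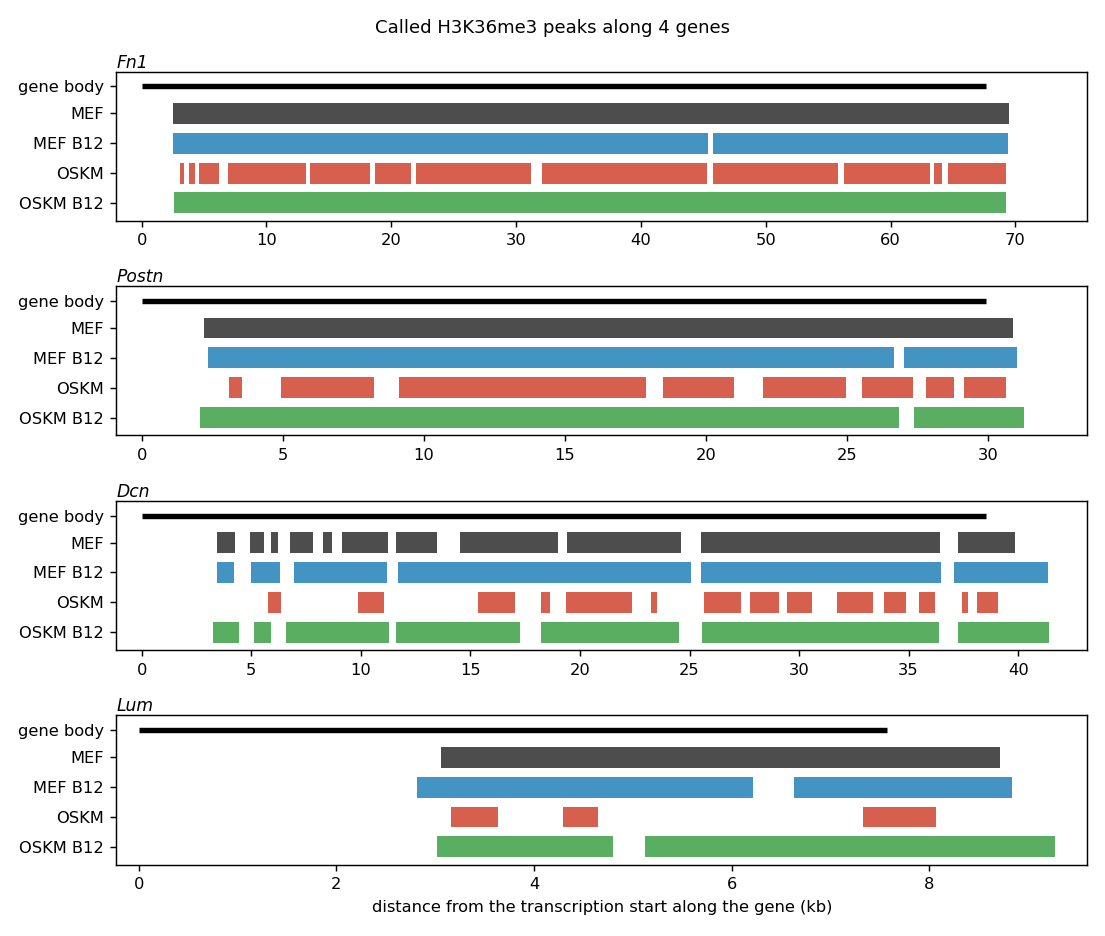
Peaks of each library along Fn1, Postn, Dcn and Lum, by distance from the transcription start in kb, with the gene body as a black line. The single MEF peaks of Fn1 and Postn are divided into 12 and 8 in OSKM, Lum keeps 3 short OSKM peaks, and no peak inside these genes starts within 2 kb of the transcription start.

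Lumican and decorin are small leucine-rich proteoglycans that bind collagen fibrils and limit their width. Lum (ENSMUSG00000036446, chr10:97565128-97572703, plus strand, 3 exons) and Dcn (ENSMUSG00000019929, chr10:97479609-97518143, plus strand, 8 exons) are neighbours, 47.0 kb apart. Of the bases between them, 7.52% were in peaks in MEF and 8.93% in MEF B12, against 2.46% in OSKM and 7.55% in OSKM B12. Lum was 59.6% covered in MEF and 57.4% in MEF B12, against 14.3% in OSKM and 56.0% in OSKM B12. Its densities were 0.330, 0.378, 0.0660 and 0.332, so that OSKM held 0.20 of the MEF density and OSKM B12 was back at the MEF value. Among the marked genes, the density of Lum lay at percentile 58.7 in MEF and 57.2 in MEF B12, against 31.1 in OSKM and 48.6 in OSKM B12. The MEF peak of 5649 bp ran from intron 1 past the gene end. In OSKM, 24.0% of its bases within Lum remained called, as a peak of 476 bp inside exon 2, one of 360 bp in intron 2 and one of 741 bp across the gene end. Exonic bases of Lum were 29.5% covered in OSKM and intronic bases 7.02%. Dcn had densities of 0.465 in MEF and 0.551 in MEF B12, against 0.184 in OSKM and 0.513 in OSKM B12. Its coverage was 75.2%, 83.5%, 40.0% and 79.7%, with 52.2% of the MEF bases kept in OSKM. Dcn was divided into 11 peaks already in MEF and into 14 in OSKM, where the first of 5 equal parts of the body was 7.43% covered against 35.2% in MEF. Over the bases called in all 4 libraries the OSKM pileup was 0.834 of MEF in Lum and 0.710 in Dcn, which are smaller differences than those of their densities. In Lum these are 1082 bp, 14.3% of the body, and they are by construction the bases that still passed the peak calling in OSKM.

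The longest coding stretch still under an OSKM peak is shown for each of this neighbouring pair, as 300 bases around its middle, both on the plus strand of mm10 with coding bases in capitals: exon 2 of Lum (chr10:97568377-97568676) and exon 4 of Dcn with the ends of its introns (chr10:97506450-97506749). All of these bases were in peaks in all 4 libraries. The scaled pileup of the peaks over the Lum bases was 0.554 in MEF and 0.625 in MEF B12, against 0.464 in OSKM and 0.698 in OSKM B12, and over the Dcn bases 0.711, 0.776, 0.497 and 0.746.
Lum exon 2: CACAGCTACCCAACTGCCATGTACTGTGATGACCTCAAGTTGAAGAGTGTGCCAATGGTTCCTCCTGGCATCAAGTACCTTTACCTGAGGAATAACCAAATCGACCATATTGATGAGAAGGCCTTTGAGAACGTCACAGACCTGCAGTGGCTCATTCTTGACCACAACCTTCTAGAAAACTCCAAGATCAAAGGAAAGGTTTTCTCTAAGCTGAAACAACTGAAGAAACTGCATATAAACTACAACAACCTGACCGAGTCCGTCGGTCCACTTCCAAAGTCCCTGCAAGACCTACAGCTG
Dcn exon 4: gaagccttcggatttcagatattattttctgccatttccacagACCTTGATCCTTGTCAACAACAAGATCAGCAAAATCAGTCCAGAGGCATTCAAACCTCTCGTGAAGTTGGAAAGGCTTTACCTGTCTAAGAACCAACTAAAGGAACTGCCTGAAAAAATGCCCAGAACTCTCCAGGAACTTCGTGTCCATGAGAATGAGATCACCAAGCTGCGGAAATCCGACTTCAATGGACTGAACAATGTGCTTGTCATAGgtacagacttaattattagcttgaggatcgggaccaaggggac

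Lox (ENSMUSG00000024529, chr18:52516067-52529674, minus strand, 7 exons) encodes lysyl oxidase, which starts the crosslinking of collagen and elastin. Its densities were 0.631 in MEF and 0.672 in MEF B12, against 0.305 in OSKM and 0.630 in OSKM B12. The last value stood at that of MEF, yet the positions differed. Of the Lox bases called in MEF and missing in OSKM, 56.3% were called in OSKM B12, the lowest share among the 10 genes, whose other members had 87.4% to 100%. In the 2 kb past the gene end, 900 bp were in peaks in MEF and 602 bp in MEF B12, and none were in OSKM or OSKM B12. An antisense gene, AC161119.1, overlaps the start of Lox by 1014 bp, where no library had a peak.

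Pdgfra and Pdgfrb encode the α- and β-receptors for platelet-derived growth factors, tyrosine kinases that drive the growth and migration of mesenchymal cells. Pdgfra (ENSMUSG00000029231, chr5:75155899-75198201, plus strand, 23 exons) had the highest density of the 10 genes in MEF, MEF B12 and OSKM. The values were 0.911 in MEF and 1.03 in MEF B12, against 0.538 in OSKM and 1.02 in OSKM B12, all at percentile 98.6 or higher among the marked genes. It kept 94.3% of its MEF bases in OSKM, the largest share among the 10 genes, mostly in a single peak of 35838 bp. The bases it lost lay in about the first 6.00 kb of the body, partly in a gap between OSKM peaks, and at the 3′ end. The 5′-most Pdgfra peak started 2234 bp from the transcription start in MEF and 4557 bp in OSKM, and the last peak ran 3874 bp past the gene in MEF but stopped inside exon 23 in OSKM. Past the gene end the mark was present again in OSKM, over 1670 bp of the next 2 kb. Pdgfrb (ENSMUSG00000024620, chr18:61045200-61085056, plus strand, 24 exons) had densities of 0.657 in MEF and 0.710 in MEF B12, against 0.419 in OSKM and 0.781 in OSKM B12. Its exons were 91.8% covered in all 4 libraries, while its introns were 71.4% covered in MEF and 73.3% in MEF B12, against 62.8% in OSKM and 82.1% in OSKM B12. The share in OSKM B12 exceeded MEF mainly in the second of 5 equal parts of Pdgfrb, which was 29.8% covered in MEF and 31.7% in MEF B12, against 17.7% in OSKM and 63.3% in OSKM B12.

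Thy1 (ENSMUSG00000032011, chr9:44043384-44048579, plus strand, 4 exons) encodes a glycolipid-anchored surface glycoprotein used to sort fibroblasts in reprogramming. Its densities of 0.226 in MEF and 0.261 in MEF B12, against 0.149 in OSKM and 0.296 in OSKM B12, rested on an estimated 131, 135, 89.6 and 156 fragments. Thy1 lay close to the middle of the marked genes, at percentiles 40.5 to 53.8. The 5′-most peak began 2228 to 2406 bp from the start in all 4 libraries. At the other end, the 2 kb past Thy1 held 495 bp of peak in MEF and 770 bp in MEF B12, against 0 bp in OSKM and 910 bp in OSKM B12. With exon coverage of 70.0% in MEF and 94.6% in MEF B12, against 37.4% in OSKM and 94.6% in OSKM B12, and intron coverage of 34.0%, 38.3%, 32.3% and 33.2%, Thy1 differed mostly in its exons, unlike Sparc and Postn.

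Ly6a (ENSMUSG00000075602, chr15:74994878-74998031, minus strand, 4 exons) encodes SCA-1, a glycolipid-anchored protein of mesenchymal and haematopoietic progenitors, from a cluster of similar Ly6 genes in which reads that match several places were dropped. Its body of 3154 bp was 11.5% covered in MEF and 5.55% in MEF B12, against 0% in OSKM and 14.7% in OSKM B12. These shares come from an estimated 14.9, 7.08, 0 and 24.9 fragments, too few to order the libraries without doxycycline. In each library with a peak, it lay over the end of exon 4 and continued 1026 to 1357 bp past the gene. OSKM also had a peak there, of 541 bp and 2.64-fold enrichment, but it began 146 bp past the gene end and so added nothing to the body. In the 2 kb past Ly6a, 1026 bp were in peaks in MEF and 1357 bp in MEF B12, against 541 bp in OSKM and 1307 bp in OSKM B12. The zero holds for the body of Ly6a only, and log2 changes of Ly6a against OSKM are set by the value added before taking logs and do not measure a fold. To show that stretch, 150 bases past the gene are printed (chr15:74994628-74994777, minus strand, mm10), of which 150 were in a peak in MEF, MEF B12 and OSKM B12 and 105 in OSKM.
Ly6a, past its end: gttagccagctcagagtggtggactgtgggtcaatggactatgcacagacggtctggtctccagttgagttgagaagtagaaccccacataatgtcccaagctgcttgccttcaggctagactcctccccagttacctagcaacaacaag

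OSKM was compared with MEF to ask how the mark over these genes differed after 72 h of factor expression. All 10 genes were lower in OSKM in both density and covered share, as were 9628 of the 9959 marked genes in density. The median covered share of the marked genes was 48.8% in MEF and 29.0% in OSKM. The log2 change of density, with 0.05 added to both values, ran from −1.71 in Lum to −0.47 in Thy1, with a median of −0.82 over the 10 genes and −0.71 over the marked genes. By this measure, 9 of the 10 were past 1.5-fold lower, against 67.6% of the marked genes, and Thy1 was the exception. Without Ly6a, which enters only through the added 0.05, the median was −0.75 and 8 of 9 genes were past the fold. Marked genes at large were lower in OSKM by a similar amount. Lum, at −1.71 (95% counting interval −1.97 to −1.45), was the only one of the 10 more than 1.5-fold below the median of the marked genes, where 6.92% of marked genes lay. Dcn followed at −1.14 (−1.23 to −1.04), Lox at −0.94 and Postn at −0.93. Pdgfra at −0.71, Fn1 at −0.68, Sparc at −0.75 and Pdgfrb at −0.59 were near the median. The place of Lum depended on the setting. With 0.2 added in place of 0.05, Lum had −0.99 beside a marked median of −0.44, no longer 1.5-fold below. Over bases common to the peak lists, which by construction passed the peak calling in OSKM, Lum had −0.26 beside −0.35. Lum stayed past 1.5-fold below with 0.01 added, at −2.16 beside −0.88, and with fold enrichment in place of pileup, at −1.77 beside −0.69.

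On bases common to the 4 peak lists, which 9 of the 10 genes have, the scaled pileup in OSKM was between 0.569 of MEF in Lox and 0.907 in Thy1. The median log2 change was −0.61 for these 9 genes and −0.35 for the 9107 marked genes with such bases. A pileup past 1.5-fold lower was found in 5 of the 9 genes, Fn1, Sparc, Postn, Pdgfra and Lox, and in 5.73% of the marked genes. By construction these bases still passed the peak calling in OSKM. A gene with a low MEF pileup over them, such as Thy1 at 0.497, therefore had little room to be past 1.5-fold lower. The 5 genes named have high densities in MEF, so the 2 shares do not compare genes of like level, and whether that level sets the share was not tested. When only peaks with −log10 q of 5 or more were kept, the median was −2.38 over the 8 genes left and −0.95 over the marked genes. These medians are not over like sets. Thy1 and Ly6a, left with no peak, were dropped, while all 9959 marked genes were kept, those left with no peak included. Postn, Lum, Dcn and Lox had no density in OSKM at this cut-off, so their changes rest on the value added before taking logs. Whether the 10 genes lost more than marked genes at this cut-off cannot be told from these medians.

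**Figure D3:**
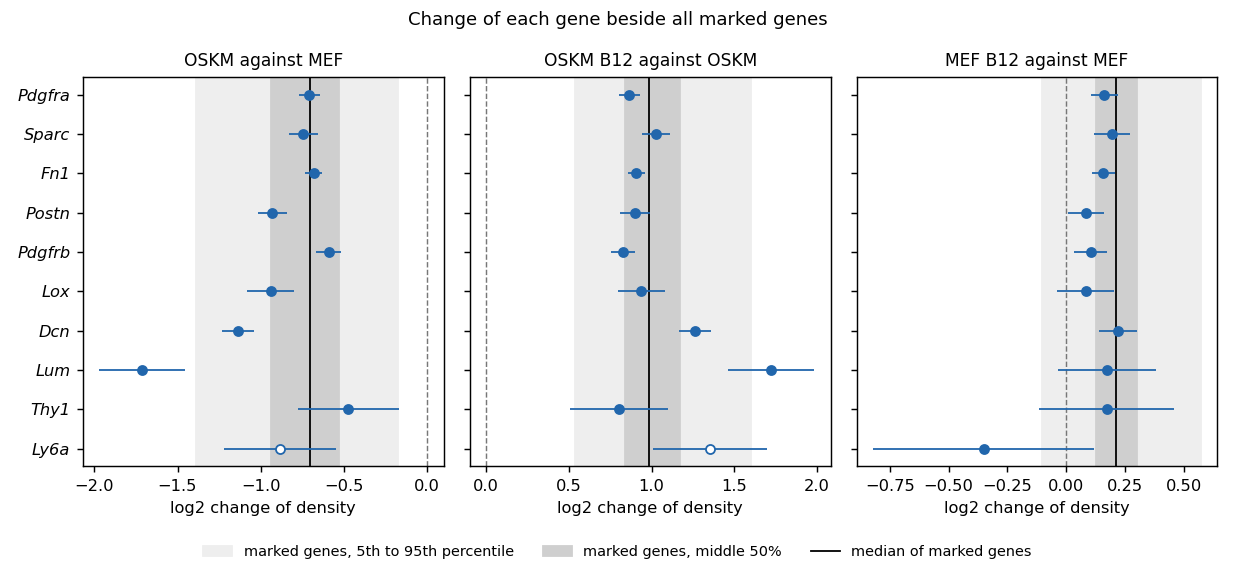
Log2 change of density of each gene in the 3 comparisons, with bars for the 95% counting interval, over the spread of the 9959 marked genes (black line, median; dark band, middle 50%; light band, 5th to 95th percentile). Lum lies outside the light band in both panels with OSKM, and open circles mark Ly6a, whose density is 0 in OSKM and whose place there is set by the added 0.05.

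Vitamin B12 given with doxycycline was compared with doxycycline alone. All 10 genes had a higher density and covered share in OSKM B12 than in OSKM, and 10 of 10 were past 1.5-fold higher, against 93.6% of the marked genes. Of the 9959 marked genes, 9835 had a higher density, and their median covered share was 29.0% in OSKM and 53.3% in OSKM B12. Ly6a had to be higher here, having no density in OSKM, and without it 9 of 9 genes were past the fold with a median of 0.91. The median log2 change was 0.92 over the 10 genes and 0.98 over the marked genes. Lum was again farthest out at 1.72 (1.46 to 1.98) and the only one more than 1.5-fold above the median of the marked genes, where 5.47% of marked genes lay. Dcn had 1.26 and Sparc 1.02, and the lowest value was 0.80 in Thy1. The place of Lum depended on the setting here too. With 0.2 added before taking logs, Lum had 1.00 beside a marked median of 0.65, not 1.5-fold above. Over bases common to the peak lists Lum had 0.51 beside 0.58. Lum stayed past 1.5-fold above with 0.01 added, at 2.17 beside 1.21, and with fold enrichment in place of pileup, at 1.72 beside 0.91. Because this comparison and that of OSKM with MEF share the OSKM library, the places of Lum and Dcn in both are not independent. Over the bases called in all 4 libraries, which by construction passed the peak calling in OSKM, 6 of 9 genes were past 1.5-fold higher, against 48.5% of the marked genes.

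Set directly beside MEF, the OSKM B12 densities were higher in 8 of the 10 genes and lower in Postn and Lox, with a median log2 change of 0.19 and a range of −0.03 to 0.47. Of the marked genes, 90.2% were higher, with a median of 0.26. Peaks over the 10 genes numbered 34 in MEF and 25 in MEF B12, against 58 in OSKM and 26 in OSKM B12. Peaks per marked gene were not counted, so whether this splitting is particular to the 10 genes cannot be told. Fn1 and Postn were in 12 and 8 peaks in OSKM and in 1 and 2 in OSKM B12, but Sparc had 3 in OSKM and 4 in OSKM B12, and Dcn was still in 7.

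In cells without doxycycline, vitamin B12 went with small differences. Density was higher in 9 of the 10 genes and lower in Ly6a, and of the 9959 marked genes 8977 were higher and 914 lower. The median log2 change was 0.16 over the 10 genes and 0.21 over the marked genes. None of the 10 was past 1.5-fold higher, against 4.78% of the marked genes. Values ran from 0.08 in Postn and Lox to 0.22 in Dcn among the genes that were higher. The counting intervals of Thy1, Lum, Lox and Ly6a included 0. Covered share was higher in 6 genes and lower in Fn1, Postn, Lum and Ly6a, while its median over the marked genes was 48.8% in MEF and 52.9% in MEF B12. When the pileup was not divided by tags the median was 0.00, and 4 of the 10 genes were lower.

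In each gene the mark began a few kb inside the start. In MEF, the 5′-most peak started 2215 to 3434 bp from the transcription start, although the bodies run from 3154 bp in Ly6a to 67652 bp in Fn1. The median distance was 2632 bp in MEF and 2640 bp in MEF B12, against 3161 bp in OSKM and 2487 bp in OSKM B12, compared with 3652, 3406.5, 4665.5 and 3319 bp for the marked genes. In OSKM it was longest in Sparc, at 6168 bp, and Dcn, at 5775 bp. With the first 3 kb set aside, coverage in MEF was 80.3% or more in all 10 genes, also in Thy1, at 80.6%, and in the 154 bp that remain of Ly6a, at 100%. In OSKM it was then 23.6% in Lum, 43.4% in Dcn, 50.5% in Thy1 and 0% in Ly6a, and 72.2% to 93.5% in the other 6 genes. Averaged over the 10 genes, the first of 5 equal parts was 34.1% covered in MEF and 34.0% in MEF B12, against 18.1% in OSKM and 38.1% in OSKM B12, and the last of 5 equal parts 88.8%, 88.1%, 62.4% and 93.8%. For marked genes the means of the first of 5 equal parts were 13.1%, 14.6%, 7.18% and 15.2%, and of the last of 5 equal parts 71.2%, 74.4%, 50.9% and 74.2%.

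**Figure D4:**
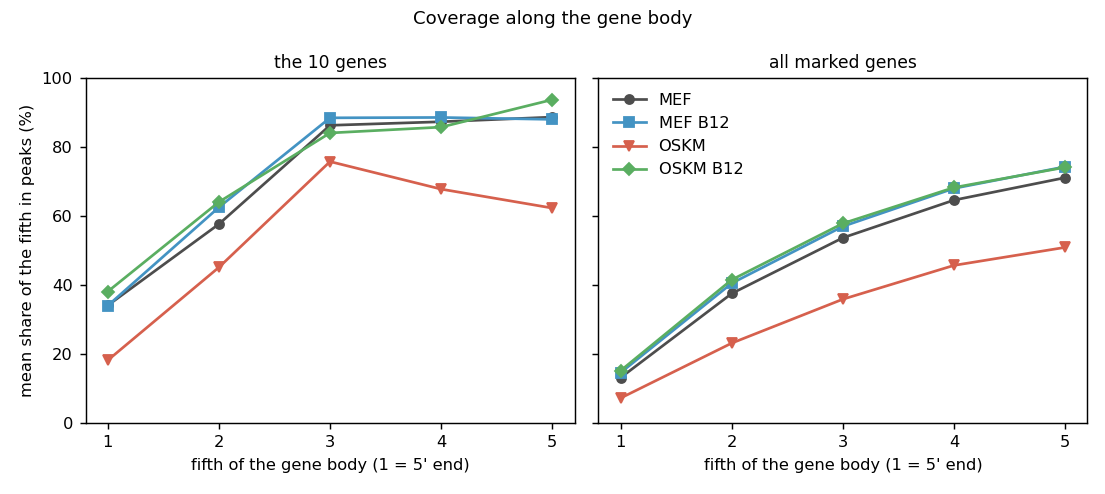
Mean covered share (%) along the gene body in 5 equal parts, from the 5′ end (1) to the 3′ end (5), for the 10 genes and for all marked genes, 1 line per library. Over the 10 genes, OSKM is highest in the middle at 75.9% and declines to 62.4% at the 3′ end, while over the marked genes it climbs to 50.9%.

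The mark extended past most of the 10 genes. Of the 2 kb after the gene end, 62.8% was covered on average in MEF and 67.4% in MEF B12, against 40.3% in OSKM and 67.5% in OSKM B12, and the marked genes had 48.4%, 51.3%, 31.4% and 51.6%.

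Exons were more covered than introns in 7 of the 10 genes in MEF and 8 in MEF B12, against 7 in OSKM and 7 in OSKM B12. Among 9815 marked genes with introns, that share was 79.6%, 79.8%, 75.8% and 78.7%.

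A wider list of 77 other matrix and surface genes without collagens was measured in the same way, and 69 of them were marked. All 69 were lower in OSKM than in MEF, 53 of them (76.8%) past 1.5-fold, with a median log2 change of −0.74. Of all marked genes, 9628 of 9959 were lower and 67.6% were past the fold, with a median of −0.71. The change was past 1.5-fold in 18 of 18 enzymes and chaperones, 16 of 22 glycoproteins, 7 of 11 proteoglycans and 12 of 18 surface proteins, and the last 3 of these groups were near the 67.6% of all marked genes. In OSKM B12 against OSKM, 69 of 69 were higher and 68 were past the fold, with a median of 1.04, where 9835 of the 9959 marked genes were higher and 93.6% past the fold, with a median of 0.98. In MEF B12 against MEF, 59 were higher and 10 lower, with a median of 0.18, and 1 gene was past the fold, Mfap4, a microfibril-associated glycoprotein named after its value of 0.90 was seen. Of the 9959 marked genes, 8977 were higher and 914 lower, with a median of 0.21 and 4.78% past the fold.

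The genes with the highest MEF density in each group of the wider list are named here. Thbs2 and Thbs1, the matricellular thrombospondins, had log2 changes from MEF to OSKM of −0.73 and −0.53. Hspg2, the basement membrane proteoglycan perlecan, had −0.53, and Podn, a small leucine-rich proteoglycan, had −1.21. Serpinh1, the collagen chaperone HSP47, had −0.61 and the gelatinase gene Mmp2 had −0.81. Axl, a receptor tyrosine kinase, had −0.56 and Itga5, the α-subunit of the fibronectin receptor, −0.59. From OSKM to OSKM B12 these genes had changes of 0.90, 0.75, 0.90, 1.31, 1.01, 0.94, 0.91 and 0.99 in the same order, each positive.

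**Figure D5:**
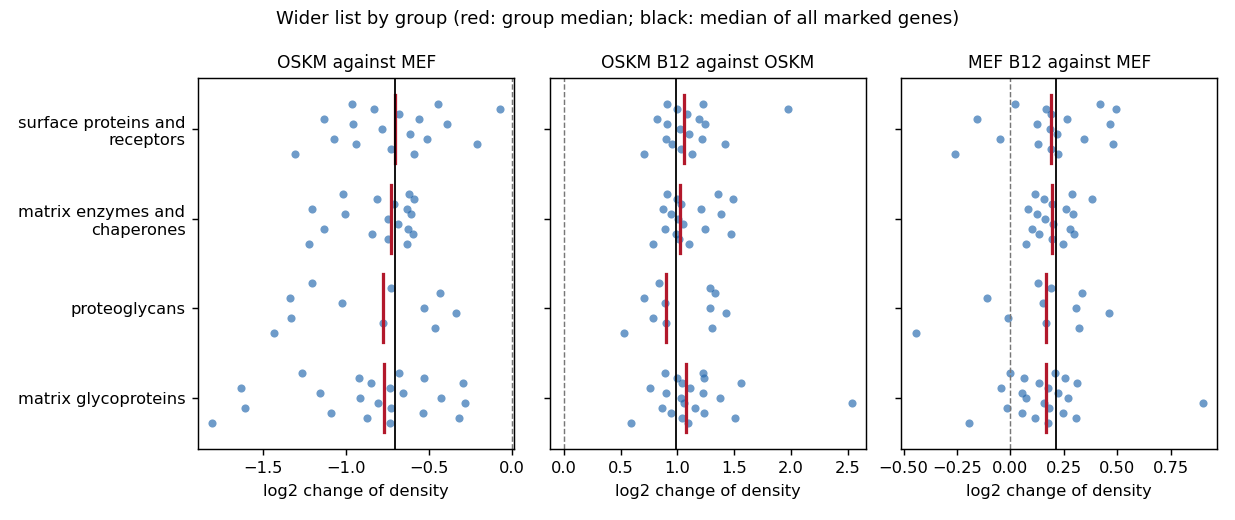
Log2 change of density of the 69 marked genes of the wider list, by group, in the 3 comparisons, with the group median in red, the median of all marked genes in black and 0 dashed. Every point lies below 0 for OSKM against MEF and above 0 for OSKM B12 against OSKM, and these panels share the OSKM library.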

How the data were processed

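The samples were 8 libraries of 1 embryo, an H3K36me3 and an input library for each of 4 conditions, grouped by their labels. Alignment to mm10 was done by the authors with Bowtie 0.12.9, and broad peaks were called with MACS2 2.2.6, separately per condition, using the matching input, with q-value cut-offs of 0.05 and 0.1 and an effective genome size of 3209286105 bases. The labels' protocol names the antibody as H3K3me3, while the sample tags and the study's methods give H3K36me3, and those methods give the doxycycline dose in mg/ml where the labels give µg/ml.

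The pileup deposited for a peak is a signal (extended fragments per base, averaged over the peak), on the scale of the H3K36me3 library, since MACS2 scales down the larger library and here that was the input. The deposited fold enrichment is a ratio to the local input. Significance in the deposited lists is given as −log10 p-value and −log10 q-value. Bases outside peaks count as 0 here, so densities and shares move with the calling threshold.

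Pileup was divided by the tags of the library per 1000000, with Python 3.11, numpy 2.4.6 and matplotlib 3.10.9. Changes are log2 ratios of density with a pseudocount of 0.05, which makes those of weakly marked genes smaller. A change past 1.5-fold was counted, and no test was run. Counting intervals (95%) come from fragments estimated as summed pileup over fragment length. Peaks on unplaced scaffolds (1 to 16 per list) were left out. Interval arithmetic was tested on simulated data. Sequences are RefSeq GRCm38.p6, the same assembly as mm10, and were read at the coordinates given. The genes, the wider list and the comparisons were chosen with earlier results of these data known. Of each group of the wider list, the 2 genes densest in MEF were named.

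The alternatives were 2 stricter peak filters, an equal number of peaks per list, the pileup as deposited, fold enrichment in place of pileup, pseudocounts of 0.01 and 0.2, bases called in all 4 libraries, and, added after seeing the data, bodies without the first 3 kb and the list without Ly6a.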

Additional observations from a re-analysis of the deposited data

Results flagged for a closer look

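The covered share was lower with vitamin B12 in cells without doxycycline and higher in cells with it for 4 of the 10 genes, and the density only for Ly6a, each from 1 library per condition, so the difference was not tested. How many marked genes did the same was not counted, so whether 4 of 10 is unusual cannot be told. The Ly6a density had a log2 change of −0.35 in MEF B12 against MEF and 1.35 in OSKM B12 against OSKM, but neither measures a size. The first rests on an estimated 14.9 and 7.08 fragments, has a counting interval of −0.82 to 0.12 and was 0.12 without the first 3 kb of the gene. The second is set by the pseudocount, since the density in OSKM is 0, and was 3.13 with a pseudocount of 0.01 and 0.47 with one of 0.2. The Ly6a covered share differed by −5.96 and 14.7 percentage points. The Fn1 covered share differed by −0.591 points without doxycycline and by 8.16 points with it. The Postn covered share differed by −1.56 and 19.4 points. The Lum covered share differed by −2.18 and 41.7 points. In Fn1, Postn and Lum the differences without doxycycline are small beside those with it, and their densities were higher with vitamin B12 in both.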

How the results depend on the processing

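No paired analysis was possible because the conditions hold 1 library apiece, and depth limits what could be called, so that a gene body without a peak had no enrichment detectable at this depth. The median log2 change of the 10 genes in OSKM against MEF was −0.82. It was −2.38 when −log10 q had to reach 5, −0.75 with fold enrichment in place of pileup, −0.90 and −0.60 with pseudocounts of 0.01 and 0.2, −0.61 over shared bases and −0.75 without Ly6a. In OSKM B12 against OSKM it was 0.92, and under the same alternatives in that order 2.27, 0.79, 1.00, 0.72 and 0.64, with 0.77 for undivided pileup and 0.98 without the first 3 kb. In MEF B12 against MEF it was 0.16, and 0.12 with the stricter q, 0.00 with undivided pileup, 0.08 with fold enrichment, 0.12 with the pseudocount of 0.2 and 0.10 over shared bases. With the stricter q, Postn, Lum, Dcn and Lox have no density in OSKM, so the medians of −2.38 and 2.27 partly rest on the pseudocount. The marked genes had medians of −0.88 and −0.44 with pseudocounts of 0.01 and 0.2 in OSKM against MEF. In OSKM B12 against OSKM these were 1.21 and 0.65, so the 10 genes were below the marked median with 0.01 and above it with 0.2. The number of genes past 1.5-fold was 5 of 9 over shared bases in OSKM against MEF, 6 of 9 in OSKM B12 against OSKM, and 1 of 8 with the stricter q in MEF B12 against MEF, where 17.7% of all marked genes were, those left with no peak included. With a pseudocount of 0.2 it was 6 of 10 in OSKM against MEF, where the marked share was 22.0%, and 8 of 10 in OSKM B12 against OSKM, where it was 62.5%. With one of 0.01 these were 9 of 10 beside 80.1% and 10 of 10 beside 96.9%. The pseudocount lowers changes of weakly marked genes most, and the 10 genes have a higher median density, so these shares do not compare genes of like level. With undivided pileup the number was 8 of 10 in OSKM against MEF, where the marked share was 64.9%. Also in MEF B12 against MEF, the sign changed for Lum and Lox with the stricter q and with fold enrichment, for Postn, Pdgfrb and Lox with undivided pileup, for Thy1 over shared bases and for Ly6a without the first 3 kb. Other medians of the 10 genes moved by less than the counting error, and no gene changed direction in the comparisons with OSKM under any alternative that gave it a value. The cause of these differences was not tested.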

Other observations

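Lum and Dcn belong to the small leucine-rich proteoglycans, and the wider list holds 6 others, looked at after their values were seen: Podn, Ogn, Aspn, Bgn, Prelp and Fmod. From MEF to OSKM all 6 were lower in density, as were 9628 of the 9959 marked genes, and 5 lay below the median of the marked genes. Aspn, which encodes asporin, had −1.43 on the log2 scale, and Ogn, which encodes osteoglycin, had −1.33. Podn had −1.21 and Bgn, which encodes biglycan, had −1.03. Fmod, at −0.73, and Prelp, at −0.34, were nearer to or above that median. From OSKM to OSKM B12 all 6 were higher, as were 9835 of the 9959 marked genes, by 0.53 to 1.33, in a comparison that shares the OSKM library. From MEF to OSKM, 7 of the 69 marked genes of the wider list lay at least 1.5-fold below the median of the marked genes. Of all marked genes 6.92% did, and 1 of the 69 lay as far above. Ecm1 at −1.81, Ltbp2 at −1.63 and Tnc at −1.61, which are outside the family, were lower than any of the 6. No test was made of this family.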
